A study of Mus musculus with 2 samples.

Results

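Plasmacytoid dendritic cells are bone-marrow-derived leukocytes with a lymphocyte-like shape and a large secretory apparatus. They carry the endosomal receptors TLR7 and TLR9 for RNA and DNA, and on engagement these signal through MyD88 and IRF7 to release large amounts of type I interferon. Their identity is held by the E protein TCF4 together with IRF8, SPIB, RUNX2 and BCL11A, and in the mouse they are recognised by the surface lectin Siglec-H and by BST2. In the liver they form a small population among Kupffer cells, conventional dendritic cells and lymphocytes. Here they were described in droplet single-cell RNA sequencing of mixed liver cell suspensions, in which hepatocytes and non-parenchymal cells were combined.

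The pIVCL library came from C57BL/6 liver 6 weeks after partial ligation of the inferior vena cava, an operation that congests the liver and raises portal pressure and that was begun at 8 to 10 weeks of age. The Control library came from C57BL/6 liver and is titled as healthy, but the growth protocol attached to it also describes the ligation and the same starting age of 8 to 10 weeks, so the groups were taken from the genotype labels. There was 1 library per group. How many animals each held, and whether Control mice had a sham operation, the labels do not say. Every difference below therefore compares 2 libraries with no replicate check, no test was possible, and the 95% intervals cover counting error only.

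Plasmacytoid dendritic cells were selected on measured transcripts. Barcodes were kept if 200 genes or more were detected and mitochondrial genes took no more than 25% of their UMIs, where a UMI is 1 counted RNA molecule. A kept cell was chosen when it held at least 2 UMIs of Siglech and 0 UMIs of Cd79a (B cells), Cd3e (T cells), Clec4f (Kupffer cells) and Xcr1 (type 1 conventional dendritic cells). This gave 63 cells of 8172 kept, namely 40 of 5446 in pIVCL and 23 of 2726 in Control. The level of Siglech and the absence of the other 4 genes follow from the choice and are given only as a description.

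In pIVCL 38154000 UMIs were spread over 7042 barcodes and in Control 24637681 UMIs over 3574. Kept cells were shallower in pIVCL (median 2005 UMIs) than in Control (median 5268), and the chosen cells shared this gap. They had a median of 4256.5 UMIs in pIVCL (range 752 to 19579, 200659 in all) and 8341 in Control (range 2838 to 14906, 192020 in all). Levels are therefore given in CPM, for which each gene's UMIs were added up over the chosen cells of a library and scaled to a total of 1000000. The median share of mitochondrial UMIs was 5.76% in both libraries. The same barcode occurred in both libraries 13 times, which touched 0 chosen cells in pIVCL and 1 in Control. No doublet caller was applied, so barcodes that held more than 1 cell were not removed.

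The name given to the cells was checked against genes that the choice did not use. Bst2, an interferon-inducible membrane protein that tethers budding virus, was found in all 40 pIVCL and all 23 Control cells, and so was Irf8, a transcription factor of dendritic cell development. Tcf4 was found in 39 pIVCL and 23 Control cells, Runx2 in 38 and 23, and the gut-homing chemokine receptor gene Ccr9 in 35 and 23. Among kept cells with 0 Siglech UMIs, Bst2 was found in 2831 of 5391 in pIVCL and 1876 of 2701 in Control. Tcf4 was found in 1385 and 1404 of these, Irf8 in 1176 and 672, Runx2 in 67 and 27 and Ccr9 in 27 and 40. Detection also moves with depth, so finding Bst2 or Tcf4 says little alone. The lymphoid surface gene Ly6d was present in 32 pIVCL and 20 Control cells, and Cox6a2, a subunit of cytochrome c oxidase typical of mouse plasmacytoid dendritic cells, in 33 and 22. Several genes that define other lymphocytes were at 0 UMIs in both libraries, among them Ms4a1 and Pax5 of B cells, Cd3d and Trac of T cells and Ncr1 and Nkg7 of natural killer cells, against a limit of 14.95 CPM in pIVCL and 15.6 CPM in Control that 3 UMIs would give. The whole B cell list of 10 genes summed to 12 UMIs in pIVCL and 13 in Control, and the Kupffer cell list to 13 and 6. The T cell list summed to 14 UMIs in pIVCL and 42 in Control, 39 of the Control UMIs being Cd8b1. The natural killer cell list summed to 27 UMIs in pIVCL and 89 in Control, mostly of Klrd1 with 26 and 83. The plasma cell list, which holds the secretory genes Xbp1 and Mzb1, summed to 131 UMIs in pIVCL and 114 in Control, and the type 2 conventional dendritic cell list to 123 and 163.

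**Figure D1:**
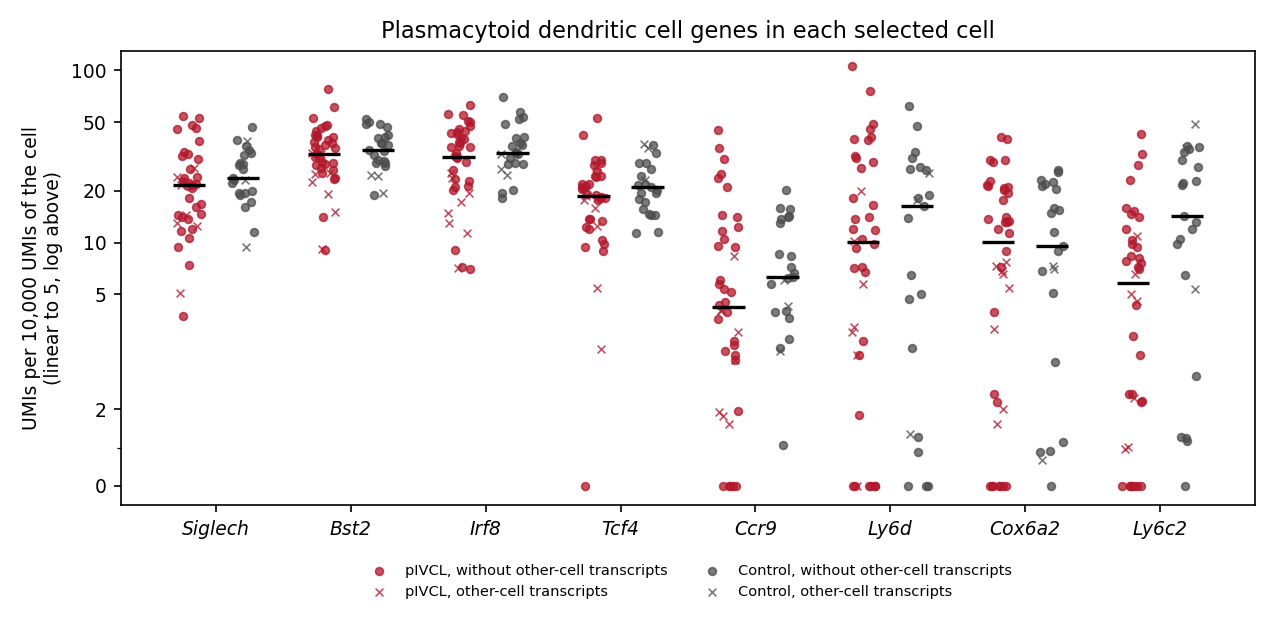
Each point is 1 chosen cell and its height the UMIs of a gene per 10000 UMIs of that cell. The axis is linear to 5 and logarithmic above, pIVCL cells stand left of Control cells, and medians are black lines. Crosses mark cells with at least 10 UMIs summed over the marker lists of sinusoidal endothelium, hepatic stellate cells and neutrophils. Median Bst2 was 32.6 in pIVCL and 34.6 in Control with wide overlap, while median Ly6c2 was 5.80 in pIVCL and 14.3 in Control, again with overlapping cells.

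Siglech itself ranged over the chosen pIVCL cells between 2 and 22 UMIs (median 9) and over the Control cells between 5 and 33 (median 19). Just inside the threshold lay 4 pIVCL cells with 2 or 3 Siglech UMIs, all of which held Irf8 and Bst2 and 3 of which held Tcf4, and 0 Control cells. Just outside it, 14 pIVCL cells and 1 Control cell held 1 Siglech UMI. In those 14 pIVCL cells Bst2 stood at 434.5 CPM and Tcf4 at 127.8 CPM, and in pIVCL cells with 0 Siglech UMIs at 384.6 and 131.3 CPM. Irf8 stood at 553.8 CPM in the 14 cells and at 100.8 CPM in cells with 0 Siglech UMIs. In the 8 of the 14 that also held none of the excluded genes it stood at 78.3 CPM. The chosen cells held 95.4% of all Siglech UMIs of kept cells in pIVCL and 96.6% in Control. In each library 1 cell with at least 2 Siglech UMIs was left out because it held Clec4f UMIs.

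The promoters of Siglech and of the interferon-inducible genes Bst2 and Ifitm3 are printed because the first names the cells and the other 2 belong to gene groups described below. They run from 250 bases before to 50 bases after the gene start, are read 5′ to 3′ on the strand of the gene, and come from RefSeq on build GRCm38.p6. Capitals mark the motif searched on both strands. That motif is the E-box CAGGTG or its reverse complement in Siglech, a motif read by E proteins such as TCF4, and in the other 2 it is the interferon-stimulated response element, searched as GAAA and GAAA with any 2 bases between them. The 2 matches of Bst2 overlap.
Siglech, chr7:55767934-55768233, plus strand: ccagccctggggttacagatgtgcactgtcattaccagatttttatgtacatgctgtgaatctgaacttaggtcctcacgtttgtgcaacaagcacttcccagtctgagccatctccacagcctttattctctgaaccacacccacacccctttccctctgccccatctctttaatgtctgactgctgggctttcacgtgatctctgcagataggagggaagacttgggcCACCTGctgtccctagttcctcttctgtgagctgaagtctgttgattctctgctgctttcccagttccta
Bst2, chr8:71537423-71537722, minus strand: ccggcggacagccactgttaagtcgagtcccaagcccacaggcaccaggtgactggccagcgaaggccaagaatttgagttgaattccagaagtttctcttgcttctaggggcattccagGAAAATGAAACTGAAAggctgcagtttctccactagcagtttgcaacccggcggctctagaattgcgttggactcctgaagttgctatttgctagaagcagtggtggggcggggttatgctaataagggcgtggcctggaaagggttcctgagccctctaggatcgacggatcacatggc
Ifitm3, chr7:141010695-141010994, minus strand: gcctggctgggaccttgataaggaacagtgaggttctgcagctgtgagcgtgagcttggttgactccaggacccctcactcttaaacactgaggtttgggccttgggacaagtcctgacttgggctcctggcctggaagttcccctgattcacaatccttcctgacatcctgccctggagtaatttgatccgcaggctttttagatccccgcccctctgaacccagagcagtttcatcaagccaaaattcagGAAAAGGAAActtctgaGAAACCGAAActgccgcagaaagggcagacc
The Siglech promoter held 1 E-box, at bases 231 to 236 of the printed run, and 20.2% of all 32851 promoters held at least 1. Bst2 held response elements at bases 121 to 130 and 127 to 136, ahead of the gene start, and Ifitm3 at bases 253 to 262 and 270 to 279, just behind it. Of all promoters, 3.44% held the response element. Counted per gene, it was found in 11 of the 23 type I interferon-stimulated genes of the list below that had a promoter sequence, in 0 of 11 plasmacytoid dendritic cell transcription factor genes, and in 1079 of 27025 genes in all. The element was not particular to the type I list, being found in 11 of 17 interferon-gamma response genes and 11 of 19 interferon genes. A match describes the sequence and is not a measured binding site.

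A few chosen cells carried large amounts of transcripts that mark other liver cells. Of the pIVCL cells 8 held at least 10 UMIs summed over the marker lists of sinusoidal endothelium, hepatic stellate cells and neutrophils, and of the Control cells 3. In pIVCL 6 of the 8 carried endothelial markers, with 24 to 92 UMIs of that list, and 1 of these also held 166 UMIs of stellate markers, 68 of them of the collagen-binding proteoglycan gene Dcn. The other 2 carried neutrophil markers. One, the deepest chosen cell with 19579 UMIs, held 7862 UMIs of the neutrophil list, among them 2668 of S100a8, 783 of Ngp and 821 of Camp, and the other held 648. The 3 Control cells carried 193, 35 and 14 UMIs of endothelial markers.

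The 8 pIVCL cells held 74 to 107 UMIs of the 14-gene plasmacytoid dendritic cell list, against a median of 82.5 over the other 32, but they were deeper, with a median of 9375.5 UMIs against 4171.5. As a level, the list stood at 9703 CPM in the 8 cells and 20155 CPM in the other 32. In Control it stood at 14787 CPM in the 3 cells and 19651 CPM in the other 20. The 8 pIVCL cells accounted for 39.5% of the UMIs of the chosen pIVCL cells, and the 3 Control cells for 13.5%. Whether each such barcode held 2 cells or free RNA was not tested. Because of their weight the main results are given over all chosen cells and over the remaining 32 pIVCL cells (121509 UMIs) and 20 Control cells (166051 UMIs), a division made after the values were seen. The remaining cells are called the cells without other-cell transcripts. The name means fewer than 10 UMIs summed over the endothelial, stellate and neutrophil lists and nothing more. Hepatocyte transcripts remained in all of these cells, and other lists were not screened.

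**Figure D2:**
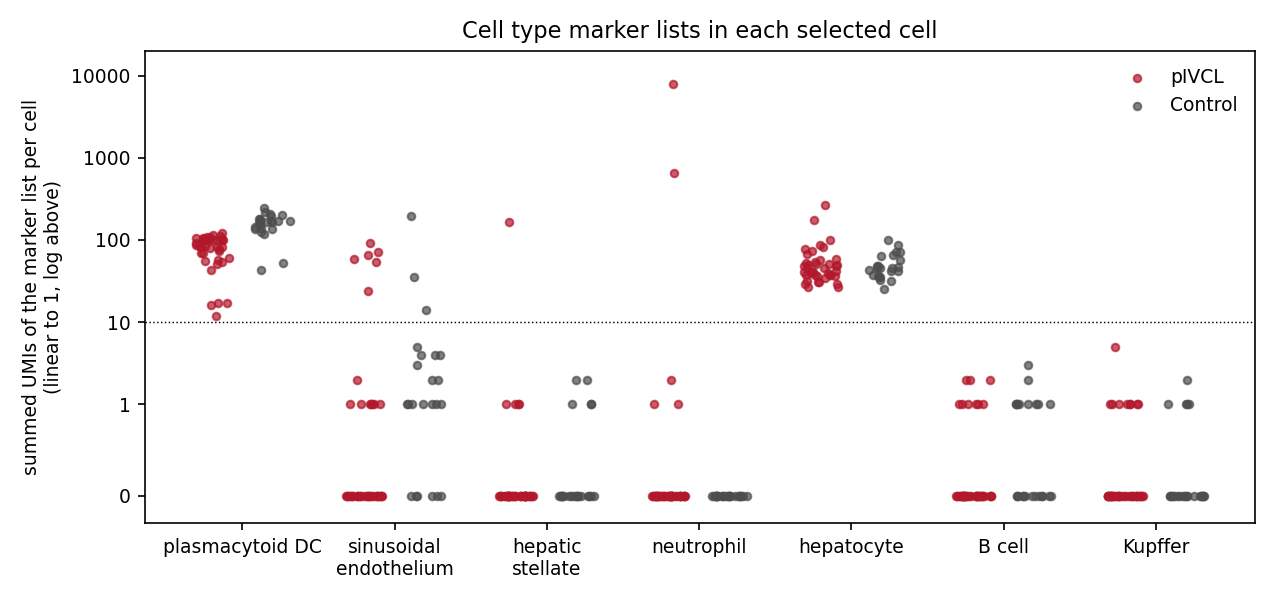
Each point is 1 chosen cell and its height the summed UMIs of a cell type marker list in it, on an axis that is linear to 1 and logarithmic above, with pIVCL left of Control. The dotted line at 10 UMIs marks the division applied to the endothelial, stellate and neutrophil lists, and the 2 pIVCL cells with 648 and 7862 neutrophil UMIs stand apart.

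Hepatocyte transcripts were present in every chosen cell and were not used for the division. The 14-gene hepatocyte list had a median of 43.5 UMIs per cell in pIVCL (27 to 264) and 45 in Control (25 to 100), which was 1.12% of summed UMIs in pIVCL and 0.603% in Control. In the cells without other-cell transcripts it was 1.42% in pIVCL and 0.596% in Control. Alb had 797 UMIs in pIVCL and 393 in Control.

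Plasmacytoid dendritic cells made up 0.735% of kept cells in pIVCL (interval 0.525% to 0.999%) and 0.844% in Control (0.536% to 1.26%), a ratio of 0.871 (0.509 to 1.52). This denominator contains hepatocytes, whose share depends on how the suspensions were mixed. Among leukocytes selected on a single marker each, they made up 2.37% in pIVCL (40 of 1691) and 3.83% in Control (23 of 601), a ratio of 0.618 (0.361 to 1.08). The B cells selected on Cd79a numbered 880 in pIVCL and 132 in Control and weigh on that denominator. Of kept cells other than those B cells, plasmacytoid dendritic cells were 0.876% in pIVCL and 0.887% in Control, a ratio of 0.988 (0.577 to 1.73). Each of these 3 intervals includes 1. Among kept cells with a UMI of the pan-leukocyte gene Ptprc they were 2.07% in pIVCL (36 of 1741) and 3.73% in Control (22 of 590), a ratio of 0.555 (0.318 to 0.990), and this share also moves with depth. Beside the Xcr1-selected conventional dendritic cells, they were 45.5% of the pair in pIVCL (40 of 88) and 60.5% in Control (23 of 38). Counting the cells without other-cell transcripts alone, the ratios were 0.801 of kept cells, 0.569 of marker-selected leukocytes, 0.909 of kept cells other than B cells and 0.517 (0.280 to 0.976) of cells with a Ptprc UMI.

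The 20 genes with the highest ratio over all other kept cells, taking the lower of the 2 libraries, describe what was chosen. After Siglech these were Cox6a2, Ccr9, Runx2, Klk1 (a tissue kallikrein), Irf8, Rnase6, Lair1, St8sia4, Pld4, P2ry14, Cd300c, Ccl4, Tyrobp, Smim5, Ly6c2, Cd7, AC140186.1, Lgals1 and Spib. Cox6a2 stood at 1116 CPM in pIVCL cells and 1135 CPM in Control cells, and in all other kept cells at 0.365 and 0.407 CPM. Ccr9 stood at 777.4 and 786.4 CPM in the chosen cells and at 1.42 and 3.71 CPM elsewhere. Pld4, an endolysosomal nuclease, stood at 792.4 and 864.5 CPM in the chosen cells and at 34.6 and 37.2 CPM elsewhere. Bst2 was less restricted, with 3025 CPM in pIVCL and 3515 CPM in Control cells, and in other kept cells 385.6 and 489.2 CPM.

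**Figure D3:**
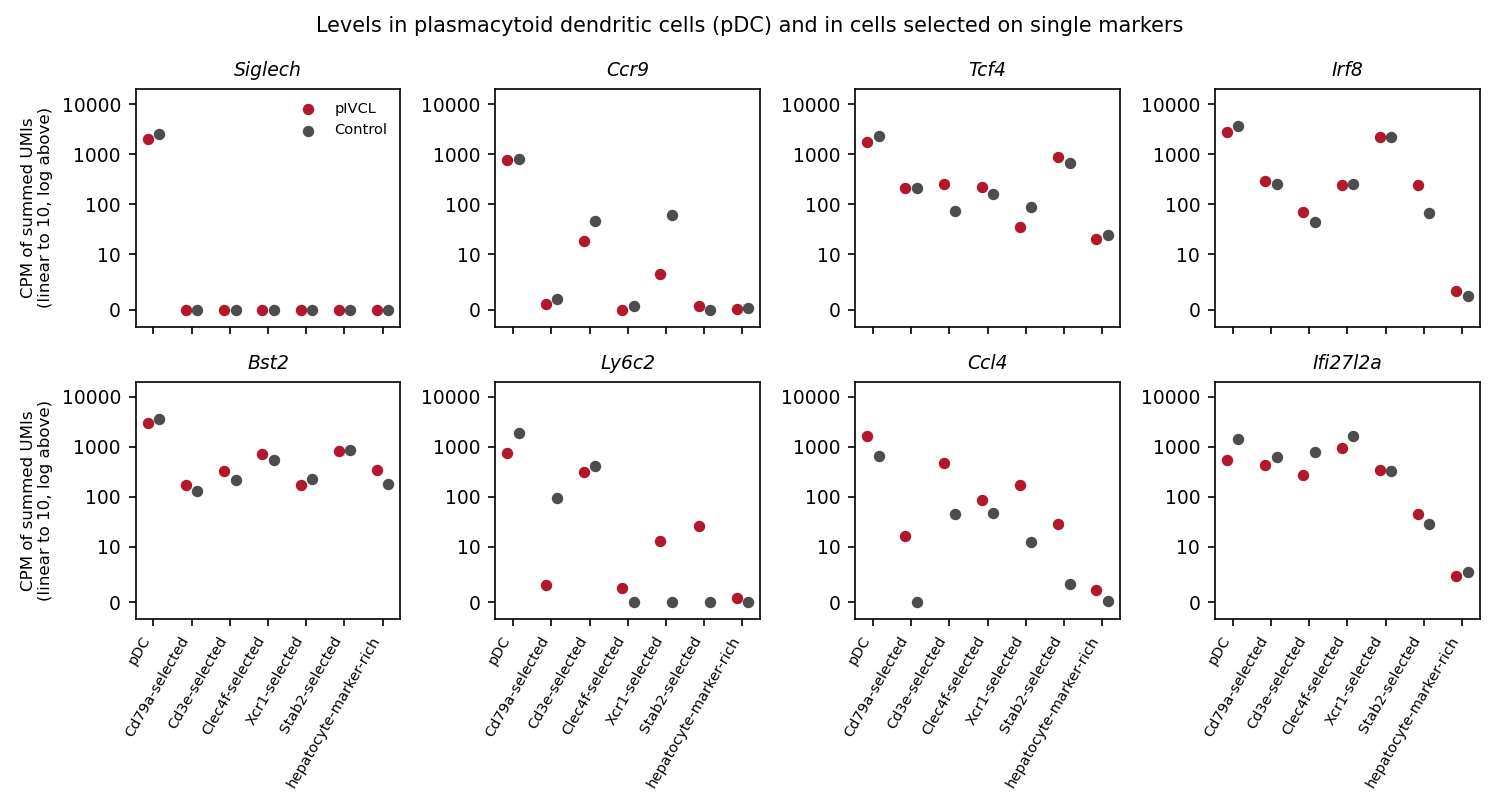
Each panel shows the level of 1 gene in CPM of summed UMIs, on an axis that is linear to 10 and logarithmic above, in plasmacytoid dendritic cells (pDC), in cells selected on Cd79a, Cd3e, Clec4f, Xcr1 or Stab2 and in hepatocyte-marker-rich cells, with pIVCL left of Control. All other classes were defined by 0 Siglech UMIs, and Irf8 in Xcr1-selected cells (2236 CPM in pIVCL, 2202 CPM in Control) approaches its level in plasmacytoid dendritic cells (2786 and 3609 CPM).

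Of 3307 genes with at least 20 UMIs summed over both libraries, 122 (3.69%) stood at least 2-fold higher in pIVCL and 27 (0.816%) at least 2-fold lower, with a median log2 ratio of -0.04 (1508 above 0, 1799 below). Log2 ratios are pIVCL over Control with 50 CPM added to both, which understates the ratio of low genes, and genes past that summed minimum are called measured. In the cells without other-cell transcripts 2368 genes were measured, of which 58 (2.45%) stood 2-fold higher and 25 (1.06%) 2-fold lower, with a median of -0.02 (1140 above 0, 1228 below). Between the 2 sets, 35 of the higher calls and 15 of the lower calls were shared. Higher genes were 81.9% of the calls over all chosen cells and 69.9% in the cells without other-cell transcripts.

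Most surface genes of cell identity stood within 2-fold between the libraries. Of the 24 surface and secreted genes typical of these cells 23 were measured, with a median log2 ratio of -0.36 over all chosen cells (3 higher, 20 lower) and -0.17 without other-cell transcripts (8 higher, 15 lower). Siglech stood at 1974 CPM in pIVCL (1784 to 2178) and 2495 CPM in Control (2276 to 2728) over all chosen cells, and at 2271 and 2620 CPM without other-cell transcripts. Bst2 stood at 3671 CPM in pIVCL and 3728 CPM in Control without other-cell transcripts, a ratio of 0.985 (0.870 to 1.11). Likewise Cox6a2 stood at 1506 CPM in pIVCL and 1259 CPM in Control (ratio 1.20, 0.976 to 1.47), Ccr9 at 1021 and 831.1 CPM (1.23, 0.956 to 1.58) and Klk1 at 880.6 and 656.4 CPM (1.34, 1.02 to 1.77). Single cells weighed on Klk1, since 3 cells held 38.3% of its pIVCL UMIs and 3 cells 56.0% of its Control UMIs.

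Ly6c2 and Cd209d were the genes of this list past 2-fold over all chosen cells, both lower in pIVCL. Ly6c2, a member of the Ly6 family whose close paralogues can share reads with it, had a median of 3 UMIs per pIVCL cell (0 to 23) and 12 per Control cell (0 to 40). The cells of the 2 libraries overlapped, and 8 pIVCL cells and 1 Control cell held none. Summed, it stood at 737.6 CPM in pIVCL (623.5 to 866.4) and 1896 CPM in Control (1706 to 2101), a log2 ratio of -1.30. Without other-cell transcripts it stood at 1012 CPM in pIVCL and 1843 CPM in Control, a ratio of 0.549 (0.442 to 0.679) and a log2 ratio of -0.83, inside the 2-fold limit. With 11 more markers of other cells excluded, which left 18 pIVCL and 9 Control cells, its log2 ratio was -0.07. After each cell was thinned to 1000 UMIs, 17 of 39 pIVCL cells (43.6%, 27.8% to 60.4%) and 18 of 23 Control cells (78.3%, 56.3% to 92.5%) held a Ly6c2 UMI, with 1 shallower pIVCL cell left out. Unthinned, these shares were 80.0% and 95.7%. In Cd79a-selected cells, which give the background, thinned shares were 0.358% in pIVCL and 0.775% in Control, at unthinned medians of 1901.5 and 3317 UMIs.

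Ly6a, its neighbour in the Ly6 family, stood at 692.7 CPM in pIVCL and 1245 CPM in Control, a log2 ratio of -0.80 over all chosen cells and -0.57 without other-cell transcripts, but 0.27 after thinning. Over cells without other-cell transcripts the levels of Ly6c2 and Ly6a had a Spearman rho of 0.70 over 32 pIVCL cells and 0.61 over 20 Control cells. This pair was chosen after its values were seen, and both genes are read from the same cells and may share reads. Cd209d, a C-type lectin gene, had 27 UMIs in pIVCL and 114 in Control, a log2 ratio of -1.80 and of -1.42 without other-cell transcripts. Of its Control UMIs 28 lay in 1 cell, and its median per cell was 0 in pIVCL and 3 in Control.

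The remaining surface genes lay between these. Over all chosen cells Nucb2 (-0.81), Klra17 (-0.61), Lair1, a collagen receptor (-0.58), Pacsin1 (-0.56), Pltp (-0.53), Cd7 (-0.43), Cd300c (-0.42), Lag3 (-0.36), Upb1 (-0.34), Atp1b1 (-0.28), Ly6d (-0.12) and Rpgrip1 (-0.05) had log2 ratios below 0. P2ry14, a receptor for UDP-sugars (0.09), and Tex2 (0.43) had ratios above 0, and Cd8a, with 8 UMIs in pIVCL and 2 in Control, was not measured. In the cells without other-cell transcripts Nucb2 stood at -0.52, Klra17 at -0.29, Lair1 at -0.38, Pacsin1 at -0.53, Pltp at -0.37, Cd7 at -0.14 and Cd300c at -0.17. Lag3 stood there at -0.37, Upb1 at 0.01, Atp1b1 at -0.02, Rpgrip1 at 0.05, Ly6d at 0.27, P2ry14 at 0.37 and Tex2 at 0.73.

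Transcription factors of the lineage stood at close levels without other-cell transcripts. Of 14 genes 13 were measured, with a median log2 ratio of -0.35 over all chosen cells (2 higher, 11 lower) and -0.04 without other-cell transcripts (5 higher, 8 lower). Tcf4, the E protein that maintains the lineage, stood at 2041 CPM in pIVCL and 2096 CPM in Control in those cells, a ratio of 0.974 (0.824 to 1.15). Irf8 stood at 3638 CPM in pIVCL and 3704 CPM in Control, a ratio of 0.982 (0.867 to 1.11). Both intervals lie inside 2-fold in either direction, but they cover counting error only and not the spread between cells or animals. Spib, an ETS factor, had a log2 ratio of -0.07 there, Bcl11a 0.11, Runx2 0.32, Zeb2 0.17, Ikzf1 0.28, Ets1 0.51, Cbfa2t3 -0.08 and Tsc22d1 -0.22. Mef2c stood at -0.69 over all chosen cells and -0.47 without other-cell transcripts. Spi1, which encodes the myeloid factor PU.1, had 11 UMIs in pIVCL and 27 in Control, at -0.86 and -1.01. Nfatc2ip, with 0 UMIs in pIVCL and 3 in Control, was not measured.

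Irf7, the factor that drives interferon-alpha transcription and is itself induced by interferon, was the transcription factor past 2-fold over all chosen cells. It was found in 16 of 40 pIVCL cells and 19 of 23 Control cells, with medians of 0 and 2 UMIs and overlapping ranges. Its summed level was 124.6 CPM in pIVCL (80.6 to 183.9) and 322.9 CPM in Control (247.6 to 413.9), a log2 ratio of -1.10. Without other-cell transcripts it was 148.1 CPM in pIVCL and 343.3 CPM in Control, a ratio of 0.432 (0.239 to 0.744) and a log2 ratio of -0.99. After thinning, 6 of 39 pIVCL cells and 5 of 23 Control cells held a UMI, shares of 15.4% and 21.7% whose intervals overlap.

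The sensing machinery showed mixed directions. Of 23 nucleic acid sensing genes 14 were measured, with a median of -0.16 (5 higher, 9 lower) and, without other-cell transcripts, 12 measured and a median of -0.13 (4 higher, 8 lower). Tlr7, the receptor for single-stranded RNA, had 25 UMIs in pIVCL and 28 in Control, a ratio of 0.854 (0.478 to 1.52), and Tlr9, the receptor for CpG DNA, had 1 UMI in pIVCL and 0 in Control, so its level could not be compared at this depth. Unc93b1, the chaperone that carries both receptors to endosomes, stood at 458.5 CPM in pIVCL and 770.8 CPM in Control, with log2 ratios of -0.69 and -0.64. Pld4 stood at -0.12 and 0.08, Ctss, a lysosomal protease, at -0.39 and -0.16, Ikbkb at -0.46 and -0.22, Irf5 at -0.30 and -0.37 and Tmem173, which encodes STING, at -0.15 and 0.10. Ap3b1, a subunit of the adaptor AP-3 that sorts endosomal receptors, had 8 UMIs in pIVCL and 16 in Control (-0.57). Lgmn, a lysosomal protease, stood at 0.82 over all chosen cells, with 28 UMIs in pIVCL and 11 in Control, Irak1 at 0.32 and -0.15, Cnpy3 at 0.17 and 0.44, Slc15a4 at 0.05 and 0.50 and Hsp90b1 at 0.06 and -0.11. Myd88 (10 UMIs in pIVCL, 8 in Control), Irak4, Traf3, Traf6, Pld3, Chuk, Ddx58 and Ifih1 were not measured.

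No interferon transcript was detected. All 20 type I and type III interferon genes searched, among them Ifna4, Ifnb1 and Ifnl3, had 0 UMIs in both libraries, which allows up to 14.95 CPM in pIVCL and 15.6 CPM in Control per gene. The interferon-alpha genes are near-identical copies, and the sources used here do not give how reads matching several of them were treated. Of the cytokines, Tnf, Il6, Il12b, Il10 and Ccl5 were also at 0 UMIs in both libraries.

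Ccl4, a chemokine that attracts leukocytes, stood higher in pIVCL. Per cell it ranged between 0 and 53 UMIs in pIVCL (median 3, found in 28 of 40) and between 0 and 39 in Control (median 1, found in 14 of 23). The ranges overlapped, and 3 cells held 34.7% of its pIVCL UMIs and 67.5% of its Control UMIs. Its summed level was 1610 CPM in pIVCL (1439 to 1795) and 656.2 CPM in Control (546.6 to 781.3), a log2 ratio of 1.23 and, without other-cell transcripts, 1.44. After thinning, 20 of 39 pIVCL cells (51.3%, 34.8% to 67.6%) and 8 of 23 Control cells (34.8%, 16.4% to 57.3%) held a UMI, intervals that overlap. In Cd79a-selected cells the thinned shares were 0.716% in pIVCL and 0% in Control (0 of 129, upper bound 2.82%). Ccl3, its neighbour in function, had 6 UMIs in pIVCL and 13 in Control.

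The interferon-induced chemokines Cxcl9 and Cxcl10 came from cells with other-cell transcripts. Cxcl9 had 24 UMIs in pIVCL and 0 in Control, and all 24 lay in the set-aside cells. Cxcl10 had 58 UMIs in pIVCL and 0 in Control, of which 57 lay in the set-aside cells. The 4 pIVCL cells with Cxcl9 each held 24 or more UMIs of endothelial markers.

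Among type I interferon-stimulated genes more measured members stood below 0 than above. Over all chosen cells the summed difference lay mostly in a pair of genes, while without other-cell transcripts the other genes also stood lower. Of 33 genes found 12 were measured, with a median log2 ratio of -0.35, against the median of -0.04 over all measured genes. Of the 12, 3 stood higher and 9 lower, with 1 past 2-fold higher and 2 past 2-fold lower. Of all measured genes 1799 of 3307 stood lower, with 3.69% past 2-fold higher and 0.816% past 2-fold lower. Without other-cell transcripts 10 genes of the list were measured, with a median of -0.38 (2 higher, 8 lower, 0 past 2-fold). There 1228 of all 2368 measured genes stood lower, with 2.45% past 2-fold higher and 1.06% past 2-fold lower. The summed level of the list was 3947 CPM in pIVCL and 5515 CPM in Control, a ratio of 0.716 (0.652 to 0.785), and 0.734 (0.656 to 0.821) without other-cell transcripts. Ly6e, with 311 UMIs in pIVCL and 414 in Control, and Ifi27l2a held most of these UMIs. Without this pair, chosen after the values were seen, the list had 371 UMIs in pIVCL and 377 in Control, a ratio of 0.942 (0.814 to 1.09), and 0.782 (0.647 to 0.943) without other-cell transcripts. With no summed minimum the list median was -0.01. Per cell it had a median of 36.7 UMIs per 10000 in pIVCL (11.4 to 75.5) and 56.5 in Control (25.6 to 90.7), so the cells overlapped.

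Ifi27l2a, an interferon-induced gene with near-identical relatives that can share its reads, had the lowest log2 ratio of the list. It ranged between 0 and 11 UMIs per pIVCL cell (median 2.5) and between 0 and 37 per Control cell (median 11). Its summed level was 548.2 CPM in pIVCL (450.5 to 660.7) and 1396 CPM in Control (1234 to 1573), a log2 ratio of -1.27. Without other-cell transcripts it was 724.2 CPM in pIVCL and 1482 CPM in Control, a ratio of 0.489 (0.379 to 0.626) and a log2 ratio of -0.98. The 3 cells with most held 41.4% of its Control UMIs. After thinning, 14 of 39 pIVCL cells (35.9%) and 13 of 23 Control cells (56.5%) held a UMI, while in hepatocyte-marker-rich cells the thinned shares were 0.545% in pIVCL and 0.439% in Control.

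Other members stood closer or depended on the set-aside cells. Ifitm3, an antiviral membrane protein gene, stood at 418.6 CPM in pIVCL and 140.6 CPM in Control over all chosen cells, a log2 ratio of 1.30. Without other-cell transcripts it stood at 123.4 CPM in pIVCL and 96.4 CPM in Control, a ratio of 1.28 (0.590 to 2.77), and in all other kept cells at 1119 and 1197 CPM. Sp100, a nuclear body protein gene, stood at -0.54 over all chosen cells and -0.47 without other-cell transcripts. Isg15 (6 UMIs in pIVCL, 7 in Control), Mx1 (3 and 3), Ifit1 (1 and 0) and Rsad2 (4 and 3), all strongly interferon-induced, were too low to compare.

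**Figure D4:**
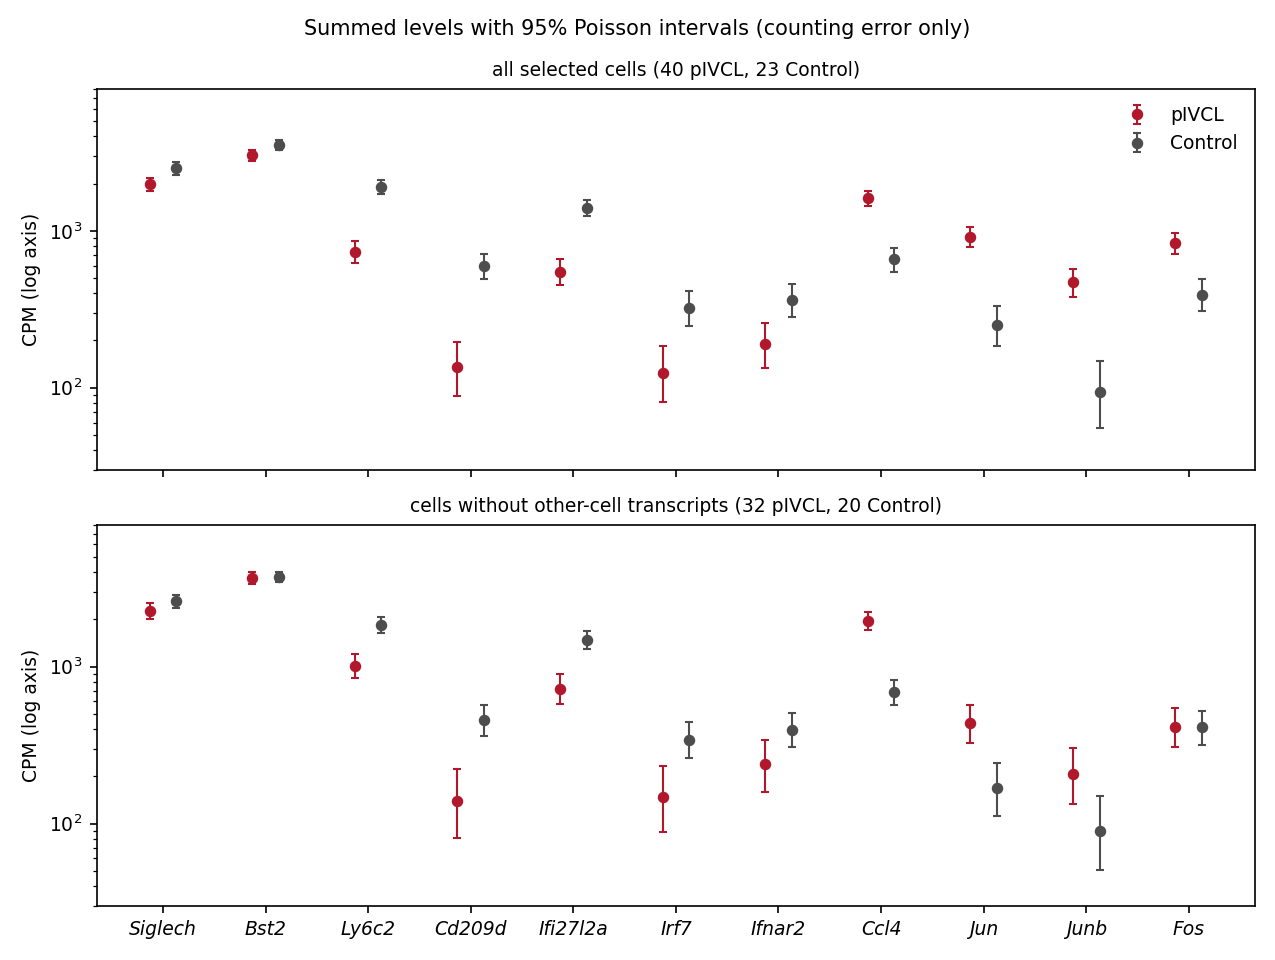
Points are levels in CPM of summed UMIs on a logarithmic axis with 95% Poisson intervals that cover counting error only, pIVCL left of Control, for all chosen cells (upper panel) and for cells without other-cell transcripts (lower panel). Ifi27l2a, Irf7, Ly6c2 and Cd209d stand lower in pIVCL and Ccl4 higher in both panels, while Fos stands at 837.2 CPM in pIVCL and 390.6 CPM in Control in the upper panel and at 411.5 and 409.5 CPM in the lower.

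Receptors for interferon and their signalling genes had few UMIs. Of 15 genes 9 were measured, with a median of -0.31 (3 higher, 6 lower), and -0.39 over 8 genes without other-cell transcripts. Ifnar2, a subunit of the type I interferon receptor, stood at 189.4 CPM in pIVCL (134.0 to 259.9) and 364.5 CPM in Control (284.2 to 460.6), with log2 ratios of -0.79 over all chosen cells and -0.63 without other-cell transcripts. Ifnar1, the other subunit, had 20 UMIs in pIVCL and 38 in Control, at -0.73 and -0.59. Jak1, a kinase of the pathway, stood at 0.93 over all chosen cells and 0.24 without other-cell transcripts, and Socs3, an inhibitor of the pathway, at 1.20 over all chosen cells, with 25 UMIs in pIVCL and 5 in Control, of which 1 and 4 lay in cells without other-cell transcripts.

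The interferon-gamma list had no common direction. Of 23 genes 9 were measured, with a median of -0.005 (4 higher, 5 lower), and -0.05 over 7 genes without other-cell transcripts. Iigp1, an immunity-related GTPase gene, stood at 1.22 over all chosen cells, but 8 of its 28 pIVCL UMIs were in cells without other-cell transcripts, against 5 of 6 in Control. Gbp4, a guanylate-binding protein gene, had 16 UMIs in pIVCL and 4 in Control (0.87), and 7 and 3 without other-cell transcripts. Irf1, an early transcription factor of this response, stood at 0.80 and, without other-cell transcripts, at 0.69, with a ratio of 1.90 (0.995 to 3.69), but at -0.51 with more markers excluded. Of its 25 pIVCL UMIs in cells without other-cell transcripts, 10 lay in 1 cell. It was found there in 10 of 32 pIVCL cells and 10 of 20 Control cells. The immunoproteasome gene Psmb8 stood at -0.75 and -0.42.

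Most measured antigen presentation genes of class II stood lower in pIVCL, by an amount that moved with the cells chosen, and those of class I stood at close levels. Of 15 class II genes 7 were measured, with a median of -0.43 (1 higher, 6 lower) and of -0.21 without other-cell transcripts (2 higher, 5 lower). Of all measured genes 1799 of 3307 and 1228 of 2368 stood lower. The class II median was -0.04 with 11 more markers excluded and -0.79 with at least 1 Siglech UMI. The invariant chain gene Cd74 stood at 3788 CPM in pIVCL and 5135 CPM in Control, a log2 ratio of -0.43 and of -0.28 without other-cell transcripts. The peptide-loading gene H2-DMb1 stood at -0.81 and -0.68, H2-Ab1 at -0.60 and -0.44 and H2-DMa at -0.46 and 0.01. Class II transcripts varied widely between cells, between 0 and 245.6 UMIs per 10000 in pIVCL (median 71.5) and between 15 and 240.4 in Control (median 99.7), and 3 cells held 35.9% of the Control UMIs. The co-stimulatory genes Cd80 and Cd40 had 0 UMIs in both libraries. Of 13 class I genes 11 were measured, with a median of -0.005 over all chosen cells and 0.10 without other-cell transcripts. Among them the largest ratios over all chosen cells were those of Psmb8, H2-D1 (-0.38), H2-T23 (-0.32) and Tapbp (0.24).

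Of 22 genes of trafficking and adhesion 14 were measured, with a median of -0.28 (4 higher, 10 lower) and of -0.22 without other-cell transcripts (5 higher, 9 lower), and after thinning the median was 0.06. Over all measured genes 1799 of 3307 stood lower, and 1228 of 2368 without other-cell transcripts. Lower members of the list included Itga4, an integrin alpha chain gene (-0.85 and -0.34), and Itgb7, a beta chain gene (-0.72 and -0.45). Cxcr3, the receptor of CXCL9 and CXCL10, had 13 UMIs in pIVCL and 26 in Control (-0.69 and -0.60). Signalling adaptors showed a like pattern. Of 20 genes for ITAM adaptors and inhibitory receptors 14 were measured, with a median of -0.35 (3 higher, 11 lower) and of -0.22 without other-cell transcripts. Tyrobp, which encodes the DAP12 adaptor of Siglec-H, stood at 3439 CPM in pIVCL and 4796 CPM in Control (-0.47 and -0.24). Klra17 and Lair1 are given above, Sirpa stood at 0.61 and 0.23, and Pirb at -0.55 and -0.46.

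The secretory apparatus, prominent in these cells, stood at close levels. Of 33 genes for the secretory pathway and the unfolded protein response 32 were measured, 16 higher and 16 lower, with a median of -0.01 and of -0.02 without other-cell transcripts, and 0 were past 2-fold in either set. Ssr4 (-0.74 and -0.55), Manf (-0.62 and -0.37), Atf4 (0.61 and 0.34) and Srp14 (0.58 and 0.54) had the largest ratios over all chosen cells.

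Genes shared with lymphoid cells marked the chosen cells in both libraries. Ighm, the immunoglobulin mu gene that mouse plasmacytoid dendritic cells can transcribe, had a median of 5.5 UMIs per pIVCL cell (0 to 14) and 11 per Control cell (4 to 20), and stood at -0.17 over all chosen cells and 0.16 without other-cell transcripts. Dntt, which adds bases at antigen receptor joints, was found in 16 pIVCL and 12 Control cells, at 0.39 and 0.72. Cd4 was found in 13 of 40 pIVCL cells (23 UMIs) and 4 of 23 Control cells (4 UMIs), at 1.22 over all chosen cells. Without other-cell transcripts it had 16 UMIs in pIVCL and 3 in Control (1.42), below the summed minimum, so it was not measured there. Notch1 stood at 0.93 and 0.89, Ptprcap at -0.63 and -0.55 and Il7r, the interleukin-7 receptor gene, at -0.45 and -0.35. Of the 17 genes of this list 7 were measured, with a median of -0.12 over all chosen cells and 0.22 without other-cell transcripts.

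Genes linked to other dendritic cells included Cd209a, the lowest of the ranked genes in both sets of cells. Cd209a, a C-type lectin gene of type 2 conventional dendritic cells with close relatives that can share its reads, was found in 4 of 40 pIVCL cells (9 UMIs) and 14 of 23 Control cells (68 UMIs), and 5 of the 9 pIVCL UMIs lay in 1 cell. Its log2 ratio was -2.09 over all chosen cells and -1.73 without other-cell transcripts, where the ratio was 0.205 (0.0894 to 0.416). After thinning, 2 of 39 pIVCL cells and 6 of 23 Control cells held a UMI, shares of 5.13% and 26.1%. Of the 20 genes of the transitional and conventional dendritic cell list 12 were measured, with a median of -0.27, and 8 without other-cell transcripts, with a median of -0.26. Lyz2 (4.36), Tmem176a (1.46) and Cd81 (1.39) stood past 2-fold higher over all chosen cells, where 3.69% of all measured genes did. Lyz2 had 196 UMIs in pIVCL, 184 of them in the cell with 7862 neutrophil UMIs, and 0 in Control. Without other-cell transcripts 0 of the 8 measured genes stood past 2-fold higher, with 1 higher and 7 lower. Of all 2368 genes measured there 2.45% stood past 2-fold higher and 1228 lower. Of 18 dendritic cell development genes 7 were measured, with a median of -0.28 and, over 5 genes without other-cell transcripts, -0.04. The largest ratios over all chosen cells were those of Id2, an inhibitor of E proteins (0.77, with 16 UMIs in pIVCL and 5 in Control), Csf2rb (-0.65) and Csf2rb2 (-0.33), receptor genes for granulocyte-macrophage colony-stimulating factor and interleukin-3, and the transcription factor gene Mycl (-0.59).

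Of 15 survival and apoptosis genes 4 were measured, with a median of 0.18, and Mcl1, an anti-apoptotic gene, stood at 318.9 CPM in pIVCL and 171.9 CPM in Control (0.73, and 0.80 without other-cell transcripts). Bak1 (-0.39), Casp8 (0.32) and Bax (0.04), which promote apoptosis, were the other measured genes. Transcripts of the cell cycle list were found in 36 of 40 pIVCL and 23 of 23 Control cells, but in pIVCL they were concentrated. There 3 cells held 61.7% of the list's UMIs, and 50.9% without other-cell transcripts. In Control 3 cells held 24.3% and 26%. Of 17 cell cycle genes 5 were measured, with a median of 0.69 over all chosen cells and 0.16 over 4 genes without other-cell transcripts. The chromatin protein gene Hmgb2 stood at 1.58 over all chosen cells and 0.66 without other-cell transcripts, H2afz, a histone variant gene, at 0.69 and 0.34, and Tuba1b, a tubulin gene, at 0.32 and -0.01. Stmn1 had 18 UMIs in pIVCL and 2 in Control (1.21). Ube2c, a mitotic ubiquitin-conjugating enzyme gene, had 19 UMIs in pIVCL and 0 in Control, with 11 in the cell with 7862 neutrophil UMIs and 8 in 1 other cell. That other cell also held the proliferation genes Mki67 (3 UMIs) and Top2a (2 UMIs) and 122 UMIs of the plasmacytoid dendritic cell list. Besides these 2 cells, no chosen cell held Mki67 or Top2a.

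Immediate-early genes, which cell isolation is known to induce, stood higher in pIVCL. Of the 20 genes of the dissociation stress list 15 were measured, with a median log2 ratio of 0.78 (14 higher, 1 lower, 5 past 2-fold, where 3.69% of all measured genes were) and, without other-cell transcripts, 13 measured with a median of 0.42 (12 higher, 1 lower, 1 past 2-fold, where 2.45% of all measured genes were). Jun had 183 UMIs in pIVCL and 48 in Control over all chosen cells (1.68) and stood at 436.2 CPM in pIVCL and 168.6 CPM in Control without other-cell transcripts (1.15). Junb stood at 1.85 and 0.87, Dusp1, a phosphatase of the MAP kinases, at 1.67 and 0.68, and Ier3 at 1.80, with 25 UMIs in pIVCL and 0 in Control. Ier3 passed the summed minimum through its pIVCL UMIs alone, so its place among the 14 higher and the 5 past 2-fold was given by that filter. It was not measured without other-cell transcripts. Fos, at 1.01 over all chosen cells, stood at 0.01 without other-cell transcripts. Of 12 NF-kB feedback genes 7 were measured, with a median of 0.06, and 4 without other-cell transcripts, with a median of 0.15. Icam1, an adhesion molecule gene, stood at 1.08, the inhibitor gene Tnfaip3 at 0.83, Nfkbid at 0.24 and Nfkbiz at 0.06, with Icam1 at 20 UMIs in pIVCL and 4 in Control (3 in each without other-cell transcripts) and Tnfaip3 at 17 and 5. The part of cell isolation in the genes above was not tested.

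**Figure D5:**
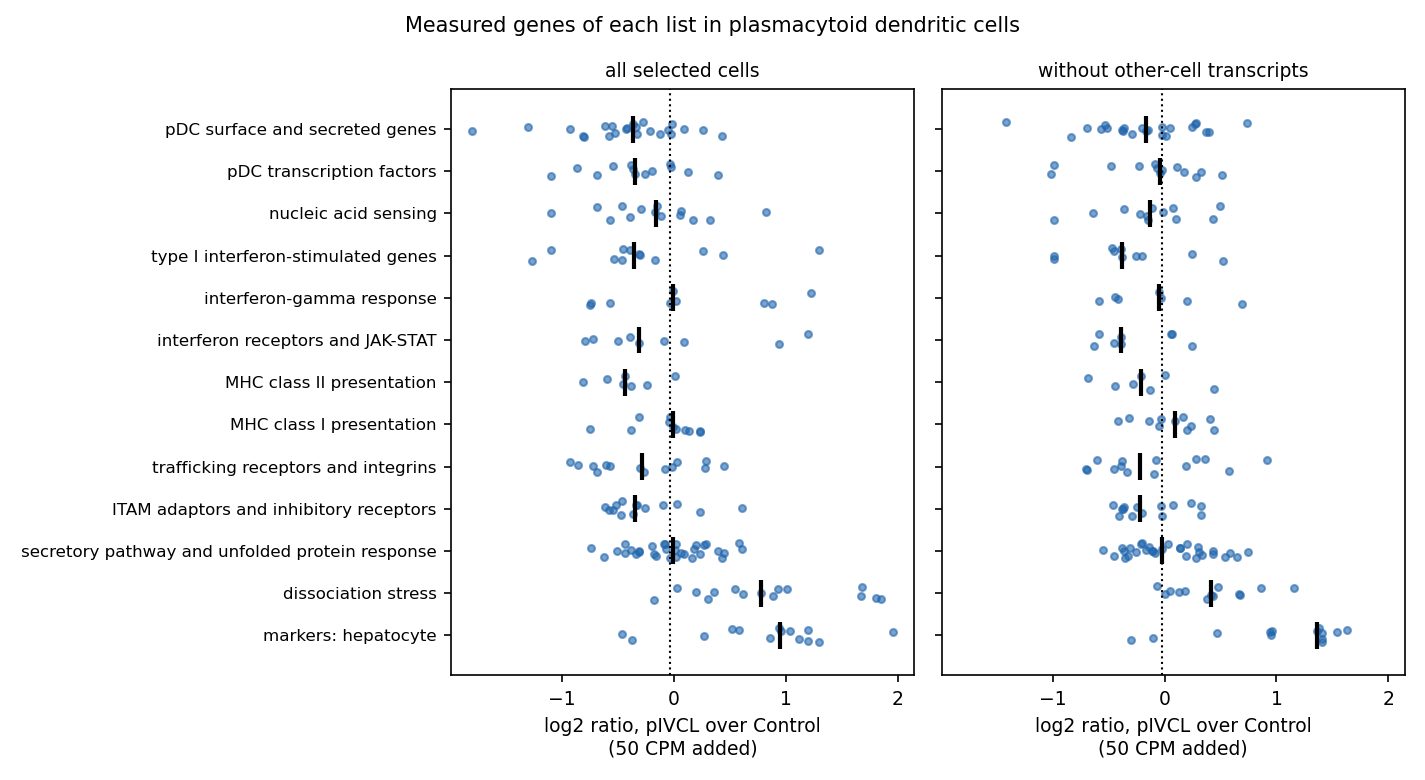
Each point is the log2 ratio of 1 measured gene, pIVCL over Control with 50 CPM added, for all chosen cells (left) and for cells without other-cell transcripts (right). Black bars are list medians and the dotted line is the median of all measured genes (-0.04 left, -0.02 right), with interferon-stimulated genes at -0.35 and -0.38 and dissociation stress genes at 0.78 and 0.42.

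Ranked over all measured genes, the 10 highest in pIVCL over all chosen cells were S100a9, S100a8, Camp, Ngp, Lcn2, Lyz2, Chil3, Ltf, Fabp4 and Retnlg. All but Fabp4, a lipid-binding protein gene of endothelial cells, are known from neutrophils or monocytes. Camp and Ngp came from 1 cell each in full, and S100a8, with 2899 UMIs in pIVCL and 0 in Control, from 2 cells. Without other-cell transcripts S100a8, Camp and Ngp had 0 UMIs in both libraries, and the 10 highest genes were Hpx, Scd1, Gstm1, Rbp4, Mbl2, Cyp3a11, Apoc3, Ndrg2, Clu and Ttr, most of them known from hepatocytes. The hepatocyte marker list had a median of 0.95 over all chosen cells (14 measured) and 1.36 without other-cell transcripts (13 measured).

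The 10 lowest genes over all chosen cells were Cd209a, Cd209d, Klrd1, Ogt, Ly6c2, Ppp1r18, Ifi27l2a, Rheb, Cd8b1 and Adam23. Without other-cell transcripts they were Cd209a, Plp2, Vim, Cd209d, Ppp1r18, Rheb, Ogt, Klrd1, Drap1 and Fam104a. Klrd1, which encodes the CD94 receptor chain known from natural killer cells, had 26 UMIs in 15 pIVCL cells and 83 UMIs in 21 Control cells, with log2 ratios of -1.42 and -1.15, while Ncr1 and Nkg7 were at 0 UMIs. Cd8b1 had 12 UMIs in pIVCL and 39 in Control, 24 of them in 1 cell. Ogt, the enzyme that adds N-acetylglucosamine to nuclear and cytosolic proteins, stood at 119.6 CPM in pIVCL and 369.8 CPM in Control, with log2 ratios of -1.31 and -1.28.

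The same contrast in other cells of these 2 libraries is set beside that of plasmacytoid dendritic cells, and the differences between cell classes were not tested. The stress list, at 0.78 here, had medians of 0.53 in Cd79a-selected, 0.93 in Cd3e-selected, 0.05 in Clec4f-selected, 0.77 in Xcr1-selected and 0.80 in Stab2-selected cells and 0.01 in hepatocyte-marker-rich cells. The hepatocyte list, at 0.95 here, had medians between 0.57 and 0.87 in the 5 other marker-selected classes. Type I interferon-stimulated genes, at -0.35 here, had medians of -0.12 in Cd79a-selected, 0.08 in Cd3e-selected, -0.26 in Clec4f-selected and 0.18 in Xcr1-selected cells. Their medians were -0.08 in Stab2-selected and 0.13 in hepatocyte-marker-rich cells. Ifi27l2a, at -1.27 here, stood at -0.47 in Cd79a-selected, -1.36 in Cd3e-selected, -0.82 in Clec4f-selected and 0.05 in Xcr1-selected cells. Its values were 0.27 in Stab2-selected and -0.02 in hepatocyte-marker-rich cells. Ccl4, at 1.23 here, stood at 0.41 in Cd79a-selected, 0.48 in Clec4f-selected, 0.57 in Stab2-selected and 0.05 in hepatocyte-marker-rich cells. It stood at 2.44 in Cd3e-selected cells (465 CPM in pIVCL, 44.7 CPM in Control) and 1.84 in Xcr1-selected cells (174 and 12.4 CPM). Irf7, at -1.10 here, stood at -0.12 in Cd79a-selected, 0.23 in Cd3e-selected, -0.47 in Clec4f-selected and 0.28 in Xcr1-selected cells. In Stab2-selected and hepatocyte-marker-rich cells Irf7 stood at 0.32 and 0.45. Ly6c2, at -1.30 here, stood at -1.43 in Cd79a-selected cells, where it had 6 UMIs in pIVCL and 46 in Control, the Control UMIs all in 1 cell. It stood at -0.36 in Cd3e-selected, 0.33 in Xcr1-selected and 0.60 in Stab2-selected cells.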

How the data were processed

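Single-cell RNA was measured in 1 pIVCL and 1 Control liver cell suspension, grouped by the genotype label. Each library was deposited as a matrix of raw, not normalized UMI counts per gene and barcode. The submitters' processing notes name Cell Ranger 3.0.2 and the build mm10. The files list 31053 genes and held only barcodes with at least 500 UMIs. Barcodes under 200 genes or over 25% mitochondrial UMIs were dropped, and the chosen cells were taken by single-gene rules, with no clustering and no doublet caller. Depth was 200659 UMIs over the chosen pIVCL cells and 192020 over the Control cells, so a gene at 0 may stand at up to 3 UMIs, 14.95 CPM in pIVCL and 15.6 CPM in Control.

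UMIs were summed per library and given as CPM. The 95% intervals are exact Poisson for levels, Clopper-Pearson for shares and conditional exact binomial for ratios, and cover counting error only. Genes with at least 20 summed UMIs were measured, and those past 2-fold with 50 CPM added were called. Other classes held at least 2 UMIs of Cd79a, Clec4f or Stab2, or 1 of Cd3e or Xcr1, and 0 of the other leukocyte markers, and hepatocyte-marker-rich cells held at least 10% hepatocyte list UMIs. Marker-selected leukocytes are the Siglech, Cd79a, Cd3e, Clec4f and Xcr1 classes. Thinning took 1 random draw per cell. Of 489 symbols in 36 lists 487 were found. Named were all members of the surface, transcription factor and sensing lists, up to 4 measured members of other lists with the largest ratios, the 10 highest and lowest genes (at least 100 CPM in the higher library, without mitochondrial, ribosomal, unnamed, immunoglobulin and T cell receptor genes and genes 10 times higher in another class) and the 20 genes most above other kept cells. Any other gene was chosen after its values were seen. Results of some genes are not reported here. The chosen cells and lists were set with earlier results of these data known. The calculations were tested on simulated data. Versions were numpy 2.4.6, scipy 1.17.1, pandas 2.3.3 and Python 3.11.15.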

Additional observations from a re-analysis of the deposited data

How the results depend on the processing

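No paired analysis was possible because each group held 1 library. The set-aside of cells with other-cell transcripts was chosen after seeing the data. The 122 higher genes became 307 with at least 1 Siglech UMI (48 pIVCL and 24 Control cells), 47 with 11 more excluded markers (18 and 9 cells), 58 without other-cell transcripts, 36 after thinning, 197 with 20 CPM added and 52 with at least 50 summed UMIs. The 27 lower genes became 67 with at least 1 Siglech UMI, 75 with 20 CPM added, 17 with at least 50 summed UMIs and 41 when mitochondrial, ribosomal and hepatocyte genes were left out of the total. Higher genes were 81.9% of calls in the main setting, 66.2% with more excluded markers, 66.7% after thinning and 69.9% without other-cell transcripts. With at least 1 Siglech UMI the list medians were -0.69 for ITAM adaptors, -0.79 for MHC class II, 0.44 for stress, -0.66 for surface genes, -0.69 for transcription factors and -0.61 for trafficking. With more excluded markers they were -0.041 for MHC class II, 0.16 for stress, -0.51 for interferon-gamma and -0.042 for transcription factors, and Fos stood at -0.76, against 1.01 in the main setting. In that setting Ly6c2 stood at -0.07, Irf1 at -0.51, Irf8 at 0.14, Tcf4 at 0.01 and Junb at 0.45, and after thinning Ly6a stood at 0.27, Ccr9 at 0.54 and Ly6d at 0.47. Without other-cell transcripts they were -0.21 for MHC class II, 0.42 for stress and -0.037 for transcription factors. After thinning they were 0.30 for stress, -0.63 for interferon-gamma and 0.057 for trafficking. With no summed minimum MHC class II stood at -0.24 and interferon-stimulated genes at -0.011, and as a mean over cells stress stood at 0.45. With more excluded markers the share of kept cells was 0.331% in pIVCL and 0.330% in Control, and of selected leukocytes 1.08% and 1.53%. The cause of these shifts was not tested beyond the number of cells and genes each setting leaves. Median-of-ratios scaling, which centres the gene ratios by design, put the median of all measured genes at 0 and gave 129 higher and 23 lower genes. Depth limits low genes: Tlr7, with 25 UMIs in pIVCL and 28 in Control, had a ratio interval of 0.478 to 1.52, and differences inside it were not detectable.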
